A study of Mus musculus with 22 samples.

Results

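Microglia, the resident macrophages of the brain, were compared between APP/PS1 mice and wild-type (WT) littermates. The comparison used 14 of the 22 samples of the study, 7 APP/PS1 and 7 WT, chosen by their labels. The other 8 samples were astrocytes of the same genotypes. APP/PS1 mice carry the transgenes APPswe (human-type amyloid precursor protein with the Swedish mutation) and PS1dE9 (presenilin 1 without exon 9), both driven by prion protein gene sequences, and deposit amyloid in the cortex as they age. All mice were C57BL/6 and 15 to 18 months old, and every sample of both groups was taken from perfused cortex. The tissue was dissociated with papain and DNase, cleared of myelin, and sorted for living cells positive for CD11b and CD45 and negative for the oligodendrocyte antigen O4. That gate can also hold perivascular macrophages, monocytes and neutrophils. RNA was amplified linearly, labelled with Cy3 or Cy5, and the APP/PS1 and the WT sample with the same replicate number shared one 2-colour Agilent array. The labels call the samples biological replicates and do not say whether animals were pooled.

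Microglia survey the tissue through receptors for nucleotides, lipids, cytokines and debris, and they depend on signalling by Csf1r and TGF-beta. Around amyloid deposits they are known to take up debris, to handle lipid through lysosomes and to change their secreted factors and their use of glucose. The results below follow that order: receptors, transcription factors, secreted factors, metabolism and signalling.

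The arrays held 32045 to 40771 values each. Prnp, whose regulatory sequences drive the transgenes, gave a check of the labels. Its log2 level was 7.2 at the lowest, 8.13 at the median and 8.95 at the highest in WT samples and 10.1, 10.52 and 10.7 in APP/PS1 samples, without overlap. The Y-linked transcript Eif2s3y matched between both samples of the array in 6 of the 7 arrays and differed on the array of replicate 1, where the APP/PS1 sample was at 10.54. The mean log2 level of 15 microglial markers lay between 14.35 and 15.22 in every sample. Itgam, which encodes the CD11b of the gate, fell by 0.48 ± 0.07 on the log2 scale (SE, n = 7 arrays, limma adjusted p = 0.000709; 7 of 7 arrays lower). An unpaired fit over all 22 samples lost the call of Itgam (adjusted p = 0.379) and one over the microglia samples alone kept it (adjusted p = 0.0265). Ptprc, which encodes CD45, changed by 0.40 ± 0.16 (adjusted p = 0.111). Neutrophil markers stood apart in one sample: their mean level over 9 genes was 13.39 in WT replicate 3 against a WT median of 7.6, and no result below is drawn from them.

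Of 22383 genes tested, 4415 (19.7%) passed an adjusted p of 0.05 (limma on within-array differences with the dye as covariate, Benjamini-Hochberg). APP/PS1 microglia were higher in 1855 genes (8.29%) and lower in 2560 (11.4%), and the median difference over all genes was −0.04. That balance turned with the pairing by array dropped, where 739 genes were higher and 446 lower, and on each slide alone, with 869 higher and 690 lower on one and 452 and 143 on the other. Changes over 2-fold also had more genes higher, 508 (2.27%) against 232 lower (1.04%). Brighter genes were called more often: of the 11197 genes above the median level, fitted alone, 4692 were called. The shares of gene lists below are set against all genes and were not matched for level. The genes that rose over 2-fold started from a median WT level of 6.59, near the 6.11 of all genes. Their sign held on arrays that did not choose them: with each array left out in turn, 92% to 98.5% of the genes called over 2-fold higher on the other arrays were also higher on the left-out one, and 82.8% to 97.8% of those called lower were lower there. Of 199 genes called over 2-fold that had another probe, 184 had the same sign on it and none was called with the opposite sign.

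**Figure D1:**
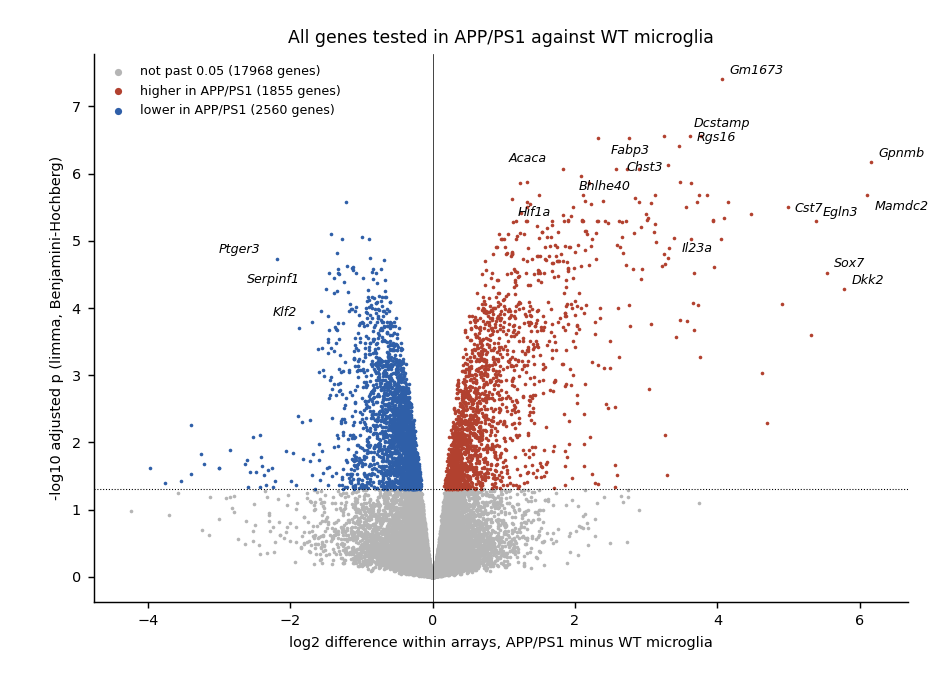
Each point is one of the 22383 genes tested, with the log2 difference within arrays on the x axis and −log10 of the limma adjusted p on the y axis; the dotted line marks 0.05, and red and blue points are the 1855 genes higher and the 2560 lower in APP/PS1 microglia. The largest differences lie on the right, up to 6.16 for Gpnmb, while among the labelled genes that fell the largest is −2.19 for Ptger3.

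Among genes measured on all 7 arrays the largest rise was that of Gpnmb. Gpnmb, a transmembrane glycoprotein of lysosome-stressed macrophages, rose 71.3-fold, from a WT range of 5.31 to 7.1 to an APP/PS1 range of 11.96 to 12.64 (6.16 ± 0.24 on the log2 scale, adjusted p = 6.81e-07). Mamdc2, a secreted proteoglycan, lay at 4.07, 4.94 and 5.67 (lowest, median and highest) in WT samples and at 10.76, 11.08 and 11.33 in APP/PS1 samples, a 68.6-fold rise (6.10 ± 0.29, adjusted p = 2.1e-06). Every APP/PS1 sample of both genes stood far above every WT sample. Egln3, an oxygen-dependent hydroxylase of hypoxia-inducible factors, was at 3.48, 5.52 and 7.0 in WT and at 10.34, 10.74 and 11.06 in APP/PS1 samples (5.38 ± 0.32, adjusted p = 5.06e-06). Dcstamp, a membrane protein required for the fusion of osteoclasts and giant cells, was at 5.9, 6.81 and 7.46 against 9.99, 10.69 and 11.03 (3.77 ± 0.12, adjusted p = 2.75e-07). The smallest standard error among them belonged to Gm1673, a small gene of little-known function, with 7.76 to 8.55 in WT and 11.94 to 12.67 in APP/PS1 samples (4.07 ± 0.09, adjusted p = 3.9e-08). All of these were higher on 7 of 7 arrays.

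Several large risers carry out steps outside the cell or in the secretory path. Hpse, the heparanase that cuts heparan sulfate chains, was at 4.96, 6.78 and 7.21 in WT and 10.09, 10.43 and 10.76 in APP/PS1 samples (3.94 ± 0.23, adjusted p = 5.06e-06). Chst3, a sulfotransferase of chondroitin sulfate, was at 4.99, 5.61 and 6.87 against 8.73, 9.43 and 9.57 (3.48 ± 0.15, adjusted p = 1.33e-06). Ero1a, the oxidase that forms disulfide bonds in the endoplasmic reticulum, was at 3.67, 5.23 and 6.21 against 8.02, 9.01 and 9.3 (3.63 ± 0.24, adjusted p = 9.35e-06). Ctse, an aspartic protease of endosomes, was measured on 6 arrays at 3.36 to 4.31 in WT and 7.73 to 8.44 in APP/PS1 samples (4.10 ± 0.20, adjusted p = 4.53e-06). Lox, the enzyme that crosslinks collagen and elastin, rose by 3.48 ± 0.33 on 6 arrays (adjusted p = 0.000153). In none of the 5 did the groups overlap. Throughout, genes were largely named for a small adjusted p and the same sign on every measured array. That choice favours groups that do not overlap, so a lack of overlap is not separate support for a change. The share of all genes whose groups do not overlap was not tested. Cst7, an inhibitor of lysosomal cysteine proteases, was already bright in WT samples (9.55 to 11.84) and reached 15.55 to 16.09 in APP/PS1 samples (4.99 ± 0.27, adjusted p = 3.12e-06).

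Some genes with blank values on several arrays, which the rule for named genes leaves out, also differed. On fewer than 6 arrays, 49 genes were called over 2-fold higher and 88 over 2-fold lower. The 3 given here, all higher, were chosen after their values were seen. Dkk2, a secreted modulator of Wnt signalling, was at 2.22, 2.84 and 4.13 in WT and 8.59, 8.81 and 9.44 in APP/PS1 samples on 5 arrays (5.78 ± 0.39, adjusted p = 5.27e-05). Sox7, an endothelial and endoderm transcription factor, was at 1.48, 2.62 and 3.53 against 7.72, 8.14 and 8.3 on 5 arrays (5.53 ± 0.34, adjusted p = 2.99e-05). Atp6v0d2, a proton pump subunit known from osteoclasts, was at 2.42, 3.25 and 3.58 against 7.09, 7.68 and 8.4 on 5 arrays (4.63 ± 0.55, adjusted p = 0.000923). No WT value of these genes reached the lowest APP/PS1 value. Their WT values are low and no detection call was used, so it is not known whether they lie above background, and the sizes of these differences are uncertain. The same holds for Asb11 and Wif1. Asb11, a ubiquitin ligase adaptor measured on 6 arrays, had one WT value of −0.95 and a median of 2.67 against 7.43 in APP/PS1 samples (5.32 ± 0.55, adjusted p = 0.000255).

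Among genes that the rule for named genes allows, large falls were smaller in size and came from genes of mixed function. Of the 232 genes over 2-fold lower, 88 were measured on fewer than 6 arrays and are left out here. Ptger3, a prostaglandin E2 receptor, was lowest in APP/PS1 samples at 2.81 to 4.87 (median 3.59) against 5.12 to 7.13 (median 5.4) in WT samples (−2.19 ± 0.16, adjusted p = 1.85e-05); its second probe gave −1.12 (adjusted p = 0.00197). Klf2, a zinc finger factor of quiescent leukocytes and endothelium, was at 11.79, 12.15 and 12.42 in WT and 9.97, 10.51 and 10.88 in APP/PS1 samples (−1.69 ± 0.18, adjusted p = 0.00016). Serpinf1, the secreted factor PEDF, was at 11.48, 11.61 and 11.74 against 9.88, 10.11 and 10.29 (−1.49 ± 0.13, adjusted p = 5.13e-05). In these 3 genes no APP/PS1 sample reached a WT sample. Slco4a1, an organic anion transporter, fell by 1.47 ± 0.15 (adjusted p = 0.000134), Gp9, a platelet glycoprotein that microglia also express, by 1.46 ± 0.12 (adjusted p = 3.02e-05), and Crybb1, a crystallin abundant in immature microglia, by 1.44 ± 0.23 (adjusted p = 0.002). Rasd2, a small Ras-like GTPase, fell by 1.61 ± 0.20 (adjusted p = 0.00041), and Bank1, a scaffold of B cell receptor signalling, by 1.55 ± 0.19 (adjusted p = 0.000395; groups overlapped). Bulk RNA of a sorted population cannot tell fewer cells of one state from less RNA per cell.

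Markers of other cells moved as well. Of 15 astrocyte markers 9 fell and 1, Gfap, rose by 1.36 ± 0.13 (adjusted p = 0.000111; 0.90 on the mean of its probes); the mean level of the 14 measured on every array was 6.69 to 8.21 in WT and 6.05 to 7.49 in APP/PS1 samples and lower on 7 of 7 arrays. Of 14 neuronal markers 8 fell, and their mean over 11 genes was 6.16 to 7.04 against 5.13 to 6.6, lower on 7 of 7 arrays. The list for perivascular macrophages and monocytes had 6 of 12 members lower, with a mean of 7.5 to 9.88 against 7.43 to 8.18, and the WT maximum was in replicate 3. Microglial markers themselves were lower, 7 of 15 called and 1 higher, with a mean of 14.71 to 15.22 against 14.35 to 14.57. Oligodendrocyte markers (11 genes, 7.38 to 8.51 against 7.68 to 8.65) were higher on 6 of 7 arrays, and 2 were called. Oligodendrocyte precursor markers (6 genes, 5.1 to 6.16 against 5.53 to 6.62) were higher on 7 of 7 arrays, with 1 of 8 called. Endothelial markers (10 genes, 6.77 to 8.15 against 7.24 to 8.43) were higher on 5 of 7 arrays. Of 12 endothelial markers 1 was called, Flt1, which is also among the receptors below. Among neuronal genes the largest falls were Syt1, a synaptic vesicle protein (−1.44 ± 0.21, adjusted p = 0.00116), and Nefl, a neurofilament (−1.36 ± 0.15, adjusted p = 0.000203); groups overlapped in both. The rises were not confined to microglia-enriched genes. Of the 508 genes over 2-fold higher, 240 (47.2%) were over 2-fold brighter in WT astrocytes than in WT microglia. Over all genes this held for 6456 (28.8%). Of the same 508, 119 (23.4%) were over 2-fold brighter in WT microglia, against 2778 (12.4%) of all genes. What part other cells had in any result was not tested.

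**Figure D2:**
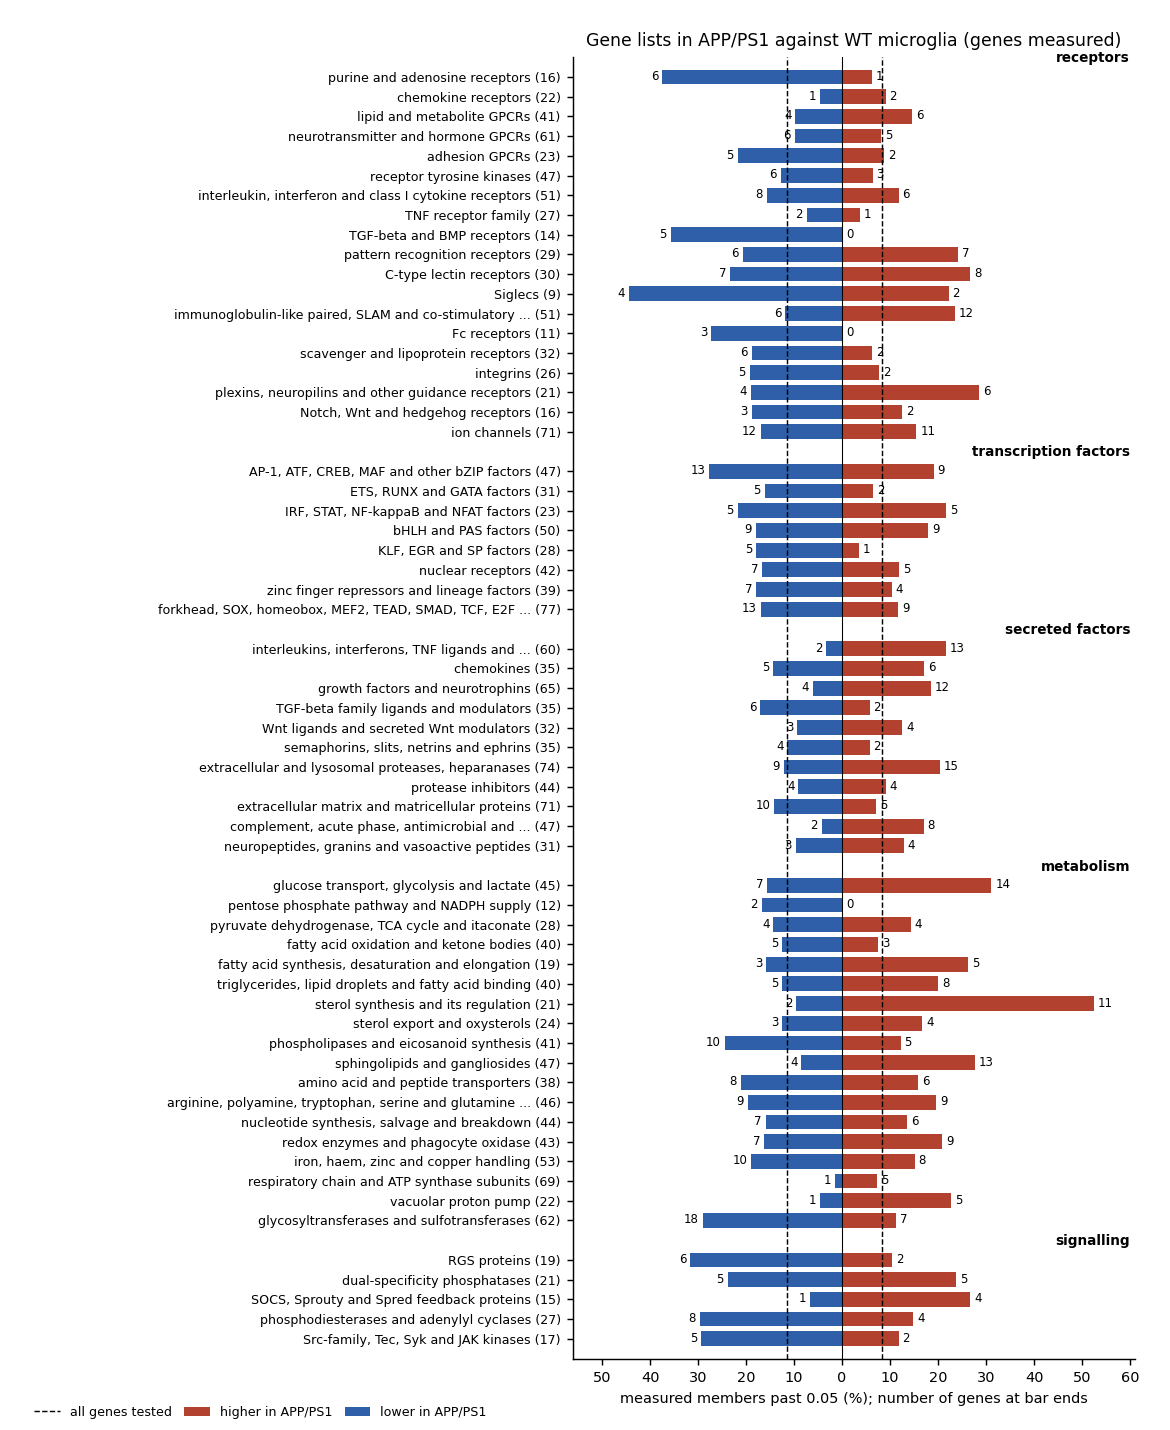
Bars give the percentage of the measured members of each gene list that were higher (red, to the right) or lower (blue, to the left) in APP/PS1 microglia at an adjusted p of 0.05, with the number of genes at the bar end and the list size in brackets; dashed lines mark 8.29% higher and 11.4% lower, the shares over all genes. Sterol synthesis (11 of 21 higher) and glucose transport and glycolysis (14 of 45 higher) reach farthest right, and purine receptors (6 of 16) and Siglecs (4 of 9) farthest left.

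Of 598 receptors and channels measured, 177 (29.6%) changed, 78 up and 99 down, against 19.7% of all genes, with a median difference of −0.06. Over 2-fold the balance was the reverse, 44 up and 17 down. The lists with the largest share of rises were guidance receptors (6 of 21), C-type lectins (8 of 30), pattern recognition receptors (7 of 29) and immunoglobulin-like, SLAM and co-stimulatory receptors (12 of 51), compared with 8.29% overall. Falls were most frequent among Siglecs (4 of 9), purine receptors (6 of 16), TGF-beta and BMP receptors (5 of 14, none up) and Fc receptors (3 of 11, none up), compared with 11.4% overall.

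Of the listed receptors Klrb1b had the largest rise. Klrb1b, an NK-type lectin and an inhibitory receptor for a C-type lectin ligand, was at 3.06, 4.54 and 4.83 in WT and 7.17, 7.98 and 8.34 in APP/PS1 samples, with no overlap (3.58 ± 0.37, adjusted p = 0.000154). Its other probes gave 2.39 (adjusted p = 0.000242) and 0.96 (adjusted p = 0.389). Family members chosen after their values were seen were Klrb1a (3.32 ± 0.23, adjusted p = 1.27e-05), Klrb1 (2.00 ± 0.18, adjusted p = 0.000127), Klrb1c (1.97 ± 0.28, adjusted p = 0.000982) and Klrb1f, which was not called at −0.39 ± 0.49 (adjusted p = 0.654). These paralogs are alike in sequence, so probes may read more than one of them. Among other lectins Cd69, an early activation receptor that retains leukocytes in tissue, was at 4.84, 7.04 and 8.25 against 8.46, 9.27 and 9.77 (2.40 ± 0.33, adjusted p = 0.000787), and Clec1a rose by 1.89 ± 0.18 (adjusted p = 8.83e-05) with some overlap. Clec4a3 fell by 1.11 ± 0.14 (adjusted p = 0.000582). Clec10a (−1.33 ± 0.28, adjusted p = 0.00851), Cd209f (−1.09 ± 0.23, adjusted p = 0.00835) and Mrc1 (−1.0 ± 0.19, adjusted p = 0.00448), lectins of perivascular and other macrophages, fell together with the marker list of those cells given above, and their groups overlapped.

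Among immunoglobulin-like and co-stimulatory receptors, 9 of the 12 rises were over 2-fold, against 508 of the 1855 rises over all genes. Pdcd1, the PD-1 receptor of T cells and activated macrophages, was at 7.43, 8.09 and 9.94 in WT and 10.4, 10.89 and 11.17 in APP/PS1 samples (2.49 ± 0.34, adjusted p = 0.000785). Cd200r4, an activating relative of the CD200 receptor, was at 4.07, 5.3 and 6.24 against 7.5, 8.18 and 8.46 (2.92 ± 0.24, adjusted p = 3.76e-05). The groups did not overlap in either gene. Of the T, B and NK cell markers 0 of 10 were called, against 19.7% of all genes. The mean of 9 of these T, B and NK cell markers was higher on 5 of 7 arrays and lower on 2. What part such cells had in these rises was not tested. Lilrb4a, an inhibitory leukocyte receptor, rose by 2.03 ± 0.22 (adjusted p = 0.000177), and its neighbour Lilr4b, chosen after its values were seen, by 1.95 ± 0.29 (adjusted p = 0.00139). Cd300lf, a receptor for lipids on dying cells, was at 4.39, 6.11 and 7.13 against 7.19, 8.21 and 8.48 (1.90 ± 0.15, adjusted p = 2.85e-05). Pattern recognition genes split: Cd14, the lipopolysaccharide co-receptor, was at 12.54, 13.2 and 13.8 against 14.79, 15.3 and 15.56 (1.97 ± 0.23, adjusted p = 0.00031), and Tlr2 rose by 1.34 ± 0.17 (adjusted p = 0.000439), while the cytosolic DNA pathway adaptor Sting1 fell, from 13.59, 14.04 and 14.4 to 12.68, 13.19 and 13.34 (−0.90 ± 0.09, adjusted p = 9.56e-05).

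G protein-coupled receptors for lipids and metabolites rose in 6 of 41 cases and fell in 4, 24.4% called against 19.7% of all genes. The prostaglandin E2 receptors went opposite ways: against the fall of Ptger3, Ptger4 was at 5.5, 6.18 and 6.99 in WT and 7.24, 8.48 and 8.75 in APP/PS1 samples (1.90 ± 0.15, adjusted p = 2.57e-05). Hcar2, the receptor for niacin and ketone bodies, was at 9.26, 9.97 and 10.26 against 11.31, 11.78 and 12.02 (1.84 ± 0.33, adjusted p = 0.00375). Gpr65, a receptor for extracellular protons, was at 7.67, 8.74 and 9.47 against 9.88, 10.73 and 10.83 (1.77 ± 0.19, adjusted p = 0.000162), and its 9 other probes gave 1.70 to 1.76. None of the 3 overlapped between groups. Cxcr4, the receptor for Cxcl12, was at 5.88, 7.13 and 8.84 against 9.17, 9.7 and 10 (2.23 ± 0.30, adjusted p = 0.000647). The accessory proteins Ramp1 and Ramp3, which set the ligand of the calcitonin receptor-like receptor, rose by 1.87 ± 0.19 (adjusted p = 0.000133; 1.00 on the mean of its probes) and 1.94 ± 0.18 (adjusted p = 8.72e-05), whereas the gene of that receptor, Calcrl, looked up after their values were seen, was at −0.50 ± 0.20 (adjusted p = 0.118). Vipr1, a receptor for vasoactive intestinal peptide, fell by 1.09 ± 0.18 (adjusted p = 0.00248; −0.66 on the mean of its probes), and P2ry12, the ADP receptor of resting microglia, by 0.89 ± 0.19 (adjusted p = 0.00822). Adgrg1, an adhesion receptor of microglia, fell from 12.81, 13.05 and 13.81 to 12.0, 12.05 and 12.69 (−0.95 ± 0.12, adjusted p = 0.000491).

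Of 51 cytokine receptors 6 rose and 8 fell (27.5% called), and of 47 receptor tyrosine kinases 3 rose and 6 fell (19.1%), against 19.7% of all genes. Flt1, a receptor for Vegfa and related ligands, was at 7.65, 8.85 and 9.94 in WT and 11.11, 11.6 and 11.75 in APP/PS1 samples (2.72 ± 0.21, adjusted p = 2.27e-05), whereas Kdr, the main endothelial receptor for the same ligand, was at −0.09 ± 0.12 (adjusted p = 0.658). Axl, a receptor that recognises phosphatidylserine through Gas6, was at 9.25, 9.72 and 10.68 against 12.34, 12.57 and 12.66 (2.71 ± 0.16, adjusted p = 5.06e-06). Il3ra, the alpha chain of the interleukin 3 receptor, was at 7.67, 8.11 and 8.93 against 9.9, 10.6 and 11.29 (2.24 ± 0.15, adjusted p = 9.41e-06). The groups of Flt1, Axl and Il3ra did not overlap. Il1r1, the signalling receptor of interleukin 1 (1.89 ± 0.14, adjusted p = 2.04e-05), and Ghr, the growth hormone receptor (1.86 ± 0.13, adjusted p = 1.21e-05), rose on 7 of 7 arrays from levels that overlapped between groups. Crlf2, the bright receptor for TSLP, rose from 13.69, 14 and 14.31 to 14.84, 15.03 and 15.17 (1.02 ± 0.07, adjusted p = 1.25e-05). Il6ra fell from 13.83, 14.46 and 14.65 to 13.36, 13.55 and 13.71 (−0.80 ± 0.10, adjusted p = 0.000531), and Ifngr1, a chain of the interferon gamma receptor, from 12.87, 13.33 and 13.56 to 12.13, 12.46 and 12.74 (−0.77 ± 0.08, adjusted p = 0.00014). Csf1r, on which microglial survival depends, was at 17.05, 17.59 and 17.89 against 15.9, 16.25 and 16.58 (−1.34 ± 0.28, adjusted p = 0.00778). In 5 of 7 WT samples it sat at most 0.5 below the top of the measured scale, and its other probes gave −0.59 and −0.78. In the TGF-beta group, Eng, a co-receptor, fell by 0.75 ± 0.12 (adjusted p = 0.00205) and Acvr2b, an activin receptor, by 0.69 ± 0.08 (adjusted p = 0.000303).

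Adhesion, guidance and channel genes added further large changes. Plxna2, a semaphorin receptor, was at 2.51, 4.44 and 5.01 in WT and 5.94, 7.08 and 7.69 in APP/PS1 samples (2.92 ± 0.18, adjusted p = 6.31e-06). Its partner Nrp1 rose by 1.36 ± 0.12 (adjusted p = 4.53e-05; groups overlapped). Unc5a, a netrin receptor, went the other way, from 7.4, 7.85 and 7.95 to 5.75, 6.24 and 6.93 (−1.32 ± 0.11, adjusted p = 3.07e-05). Among integrins, Itgax, the CD11c chain, rose by 2.62 ± 0.15 (adjusted p = 5.06e-06) and the fibronectin receptor chain Itga5 from 6.84, 7.33 and 8.17 to 8.29, 9.16 and 9.79 (1.63 ± 0.12, adjusted p = 1.7e-05), while Itga9, a tenascin and osteopontin receptor chain, fell from 9.75, 9.91 and 10.36 to 8.24, 8.97 and 9.42 (−1.12 ± 0.09, adjusted p = 2.72e-05). Stab1, a scavenger receptor, fell from 13.1, 13.56 and 13.85 to 12.13, 12.44 and 12.77 (−1.10 ± 0.13, adjusted p = 0.000359). Channels were near even, 11 up (15.5%, against 8.29% of all genes) and 12 down (16.9%, against 11.4%) of 71. Cacna1a, the pore of P/Q-type calcium channels, was at 6.01, 6.79 and 7.21 against 8.03, 9.01 and 9.17 (2.14 ± 0.15, adjusted p = 1.38e-05), and the lysosomal channel Mcoln2 rose by 2.14 ± 0.32 (adjusted p = 0.00133). Clic4, an intracellular chloride channel protein, was at 9.77, 10.9 and 11.79 against 12.35, 13.21 and 13.41 (2.15 ± 0.20, adjusted p = 8.87e-05). Kcnk12, a leak potassium channel subunit, fell by 1.02 ± 0.21 (adjusted p = 0.00789).

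Of 337 transcription factors 44 rose and 64 fell (32.0% called, against 19.7% of all genes), with 18 over 2-fold higher and 9 over 2-fold lower. The median WT level of these factors was 7.87, above the 6.11 of all genes. Bhlhe40, a basic helix-loop-helix repressor, had the largest rise among those named by the rule, from 6.69, 7.45 and 8.42 to 10.13, 10.67 and 10.85 (3.12 ± 0.15, adjusted p = 2.1e-06). Hif1a, the oxygen-regulated subunit of hypoxia-inducible factor, was at 8.48, 9.6 and 9.96 against 10.63, 11.25 and 11.61 (1.85 ± 0.11, adjusted p = 5.06e-06). Arnt2, a dimerisation partner of such factors, was at 3.93 to 5.13 against 5.91 to 6.9 on 6 arrays (2.19 ± 0.15, adjusted p = 2.29e-05). The groups were apart in all 3. Zbtb16, a zinc finger factor of innate-like lymphocytes, was at 5.71, 6.03 and 6.46 against 7.32, 8.07 and 8.51 (1.87 ± 0.16, adjusted p = 4.94e-05). Crem, which includes the inducible cAMP repressor, was at 5.69, 7.16 and 7.9 against 8.05, 9.05 and 9.69 (1.75 ± 0.11, adjusted p = 7.41e-06); one of its other probes gave 1.70 and another 0.05 (adjusted p = 0.91). Id3, an inhibitor of helix-loop-helix factors, was at 7.9, 8.19 and 8.93 against 9.51, 9.77 and 10.18 (1.49 ± 0.10, adjusted p = 9.1e-06). Of the orphan nuclear receptors of the Nr4a family, Nr4a2 (1.87 ± 0.23, adjusted p = 0.000428) and Nr4a3 (1.59 ± 0.31, adjusted p = 0.00583) rose, while the far brighter Nr4a1 was at 0.30 ± 0.26 (adjusted p = 0.485). The non-canonical NF-kappaB genes Nfkb2 (0.72 ± 0.10, adjusted p = 0.000812) and Relb (0.69 ± 0.11, adjusted p = 0.00225) rose less than 2-fold.

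Irf4, an interferon regulatory factor of alternative activation, was at 7.49, 8.34 and 8.5 in WT and 5.95, 6.61 and 7.09 in APP/PS1 samples (−1.54 ± 0.21, adjusted p = 0.00085). Myc, the growth regulator, was at 11.47, 11.87 and 12.45 against 10.29, 10.91 and 11.3 (−1.05 ± 0.15, adjusted p = 0.00106). Cebpd, a bZIP factor of acute responses, was at 12.37, 12.63 and 13 against 11.52, 11.65 and 12.17 (−0.94 ± 0.14, adjusted p = 0.00138). No WT sample of the 3 overlapped an APP/PS1 sample. Jun, an AP-1 subunit, fell from 15.95, 16.17 and 16.35 to 14.69, 15.29 and 15.61 (−0.89 ± 0.18, adjusted p = 0.00685), and Sox4 by 0.88 ± 0.09 (adjusted p = 0.000127). Hes1, a target of Notch, fell by 1.26 ± 0.18 (adjusted p = 0.000855; groups overlapped). Immediate early genes, which respond to tissue dissociation, did not move as one: of 18, 5 rose (27.8%, against 8.29% of all genes) and 3 fell (16.7%, against 11.4%), and Fos (−0.20 ± 0.17, adjusted p = 0.484), Junb (−0.23 ± 0.15, adjusted p = 0.334) and Egr1 (0.37 ± 0.19, adjusted p = 0.229) were not called.

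Of 18 circadian clock genes, a group chosen after its values were seen, 8 were lower, 3 higher and 7 not called, where 11.4% of all genes were lower and 8.29% higher. In the clock, Clock and Arntl bind E-boxes and drive the period, cryptochrome, Nr1d and PAR bZIP genes, which Nfil3 and Bhlhe40 oppose. Ciart, a repressor of Clock and Arntl, was at 6.85, 7.47 and 8.12 in WT and 4.56, 5.92 and 6.85 in APP/PS1 samples (−1.60 ± 0.22, adjusted p = 0.0009; −2.02 on the slide of replicates 2, 3, 4 and 5 and −0.94 on that of 1, 6 and 7). Nr1d1, the heme-binding repressor REV-ERB alpha, was at 7.72, 8.63 and 8.91 against 6.46, 6.98 and 7.62 (−1.30 ± 0.20, adjusted p = 0.00133; −1.71 and −0.72 on the same slides). The PAR bZIP activators fell too, Hlf by 1.33 ± 0.11 (adjusted p = 2.99e-05), Tef by 0.83 ± 0.13 (adjusted p = 0.00158) and Dbp by 0.75 ± 0.17 (adjusted p = 0.0113). Tef was at 12.32 to 12.88 against 11.51 to 12.06 and Dbp at 9.96 to 10.6 against 9.18 to 9.95, without overlap. Their antagonist Nfil3 rose from 8.75, 9.72 and 10.25 to 10.99, 11.65 and 12.17 (2.12 ± 0.21, adjusted p = 0.000117). Per2 (−1.12, adjusted p = 0.0182) and Per3 (−0.59, adjusted p = 0.0139) were called with the pairing by array and not without it (adjusted p = 0.155 and 0.591). Clock (−0.11, adjusted p = 0.548), Arntl (0.17, adjusted p = 0.172), Nr1d2 (−0.04, adjusted p = 0.869) and Per1 (−0.32, adjusted p = 0.216) were not called. The labels used here give no time of day, and its part was not tested.

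Upstream sequences are shown for 2 of the clock genes that fell because both hold the E-box CACGTG, which reads the same on both strands and contains the shorter hypoxia response core ACGTG. They are the 250 bases before the RefSeq start, on GRCm38.p6, written 5′ to 3′ on the gene's strand with the E-boxes in capitals. Positions are counted back from the start. Ciart holds E-boxes that begin at −116, −58 and −44, and Tef, which has 2 annotated starts, holds one at −127 of the start used. Of the 7 lowered clock genes with upstream sequence 3 held the E-box (Ciart, Cry1 and Tef), as did 2 of the 7 not called, against 7.83% of the 17080 tested genes with upstream sequence and 6.02% of 32851 promoters. A match is a run of letters and shows no binding.
Ciart chr3:95882229-95882478 (- strand): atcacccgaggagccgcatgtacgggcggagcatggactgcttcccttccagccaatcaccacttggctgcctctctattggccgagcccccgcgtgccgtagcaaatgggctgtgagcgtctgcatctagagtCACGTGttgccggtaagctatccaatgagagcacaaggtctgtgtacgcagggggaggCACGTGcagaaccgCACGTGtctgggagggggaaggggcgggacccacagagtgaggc
Tef chr15:81802423-81802672 (+ strand): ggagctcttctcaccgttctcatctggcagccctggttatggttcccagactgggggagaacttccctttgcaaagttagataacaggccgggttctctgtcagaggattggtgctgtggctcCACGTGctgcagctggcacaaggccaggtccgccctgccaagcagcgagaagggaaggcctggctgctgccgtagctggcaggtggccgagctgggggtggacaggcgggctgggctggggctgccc

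**Figure D3:**
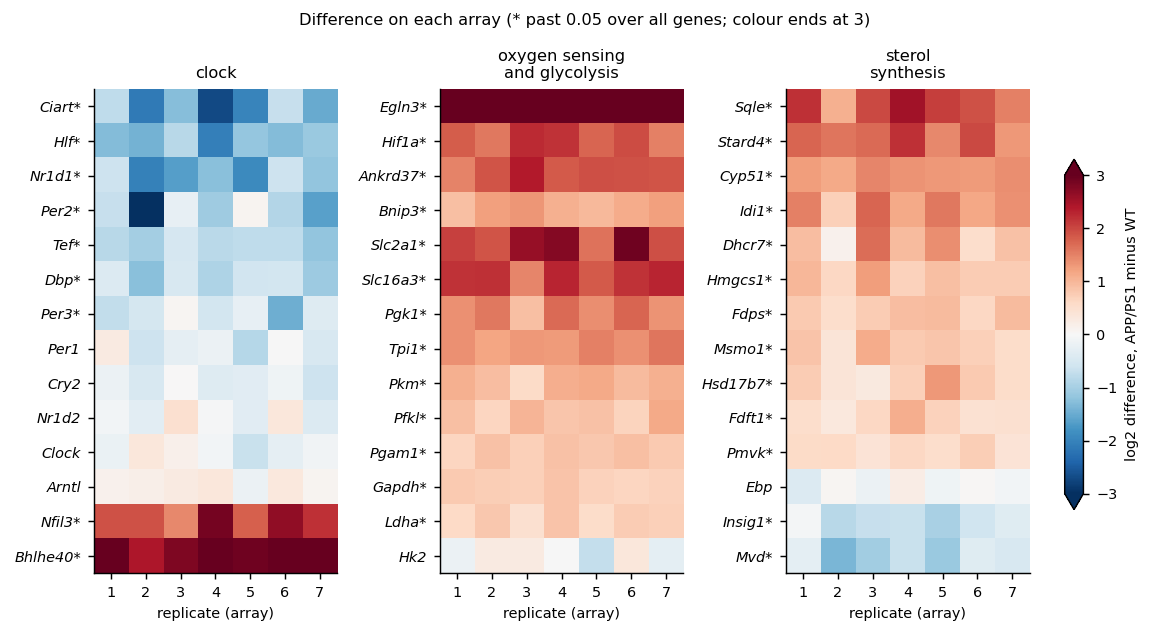
Each square is the log2 difference, APP/PS1 minus WT, of one gene (rows) on one array (columns, replicates 1 to 7), red where APP/PS1 is higher and blue where lower, with the colour scale ending at 3 in both directions and an asterisk at genes past an adjusted p of 0.05. Bhlhe40 and Nfil3 are red on every array while Ciart, Hlf, Nr1d1, Tef and Dbp are blue on every array, and Hk2, Ebp, Clock and Arntl change sign between arrays.

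Of 529 secreted factors 75 rose (14.2%, against 8.29% of all genes) and 52 fell (9.83%, against 11.4%), so that 24.0% were called against 19.7%, with 47 over 2-fold higher and 13 over 2-fold lower. Interleukins, TNF ligands and related factors had 13 of 60 higher (21.7%) and 2 lower (3.33%), and growth factors 12 of 65 higher (18.5%) and 4 lower (6.15%). The chains of interleukin 23 rose. Il12b, the chain shared with interleukin 12, was at 4.88, 7.01 and 8.24 in WT and 9.99, 10.77 and 11.44 in APP/PS1 samples (3.73 ± 0.32, adjusted p = 8.98e-05), and its 9 other probes gave 3.54 to 3.68. Il23a, its partner in interleukin 23, was at 2.84, 4.84 and 5.15 against 6.9, 8.04 and 8.38 (3.39 ± 0.22, adjusted p = 8.93e-06). Il12a, the partner in interleukin 12, was measured on 2 arrays only and was not called. Il1b was at 12.3, 13.47 and 14.15 against 15.41, 15.68 and 16.49 (2.49 ± 0.29, adjusted p = 0.00031), and its receptor antagonist Il1rn, chosen after its values were seen, rose by 1.87 ± 0.26 (adjusted p = 0.00133) from a dimmer, overlapping level. Tnf, bright in both groups at 14.15 to 15.13 and 14.27 to 15.27, was at 0.01 ± 0.29 (adjusted p = 0.984). Tnfsf8, the CD30 ligand, was at 5.51, 6.86 and 7.15 against 7.92, 8.73 and 9.03 (2.04 ± 0.14, adjusted p = 1.16e-05). Csf1, the ligand of Csf1r and again chosen after its values were seen, was at 11.37, 12.0 and 12.92 against 13.33, 14 and 14.22 (1.81 ± 0.13, adjusted p = 1.55e-05), opposite to its receptor. Il16, a CD4 ligand, fell by 0.84 ± 0.16 (adjusted p = 0.00552).

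Chemokines rose in 6 of 35 cases (17.1%, against 8.29% of all genes) and fell in 5 (14.3%, near the 11.4% of all genes). Cxcl1, a neutrophil attractant, was at 6.21, 8.06 and 8.85 in WT and 10.27, 10.97 and 11.21 in APP/PS1 samples (3.12 ± 0.19, adjusted p = 5.63e-06). Its neighbour in the gene cluster, Cxcl2, was at 8.18, 8.9 and 9.63 against 9.69, 10.68 and 11.19 (1.72 ± 0.25, adjusted p = 0.00117). In both genes every APP/PS1 sample was above every WT sample. Cxcl14, a chemokine for monocytes and dendritic cells, was at 6.84, 7.29 and 7.87 against 8.6, 8.69 and 9.13 (1.46 ± 0.15, adjusted p = 0.00015). Ccl24 (−1.24 ± 0.22, adjusted p = 0.00312) and Pf4 (−1.14 ± 0.21, adjusted p = 0.00404), both known from perivascular macrophages, fell with that marker list. Ccl4, the brightest chemokine measured, was at −0.09 ± 0.33 (adjusted p = 0.898). The 250 bases upstream of Cxcl1 and Cxcl2 (RefSeq, GRCm38.p6, 5′ to 3′ on the + strand) are shown because both hold an NF-kappaB-type motif, GGAAA and TCCC with 1 base between, here as its other strand (GGGA and TTTCC with 1 base between) and in capitals, beginning at −71 and −97. Of 32851 promoters 0.356% hold it on either strand, as do 0.445% of tested genes; it overlaps none of the other motifs searched here.
Cxcl1 chr5:90890995-90891244 (+ strand): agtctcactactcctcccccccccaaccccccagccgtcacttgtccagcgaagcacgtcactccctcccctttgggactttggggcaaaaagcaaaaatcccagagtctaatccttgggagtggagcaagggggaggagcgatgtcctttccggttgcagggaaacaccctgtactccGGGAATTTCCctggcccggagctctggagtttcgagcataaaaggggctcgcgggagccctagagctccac
Cxcl2 chr5:90903649-90903898 (+ strand): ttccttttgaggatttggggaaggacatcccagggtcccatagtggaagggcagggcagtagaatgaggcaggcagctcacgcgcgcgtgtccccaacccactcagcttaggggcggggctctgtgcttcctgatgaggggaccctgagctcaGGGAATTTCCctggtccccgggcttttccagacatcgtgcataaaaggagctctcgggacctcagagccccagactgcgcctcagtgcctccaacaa

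Vegfa, the ligand of Flt1 and Kdr, was at 8.47, 9.28 and 9.8 in WT and 10.31, 11.32 and 11.85 in APP/PS1 samples (2.11 ± 0.10, adjusted p = 2.1e-06). Fgf1 was at 8.03, 8.55 and 8.87 against 10.33, 10.6 and 10.84 (2.14 ± 0.11, adjusted p = 2.52e-06), though its other probe gave 0.61 (adjusted p = 0.0164). Angptl4, an inhibitor of lipoprotein lipase, was at 5.07, 6.35 and 6.96 against 7.05, 8.49 and 8.59 (1.92 ± 0.13, adjusted p = 1.25e-05). The groups of the 3 did not overlap. Igf1, chosen after its values were seen, rose by 1.09 ± 0.11 on the probe used (adjusted p = 0.000109) and by 2.19 to 4.54 on its other probes. Of 32 Wnt ligands and modulators 4 rose and 3 fell, 21.9% called and near the 19.7% of all genes. Wif1, a secreted Wnt inhibitor, was at 2.31, 3.16 and 4.31 against 6.43, 6.64 and 6.95 on 6 arrays (3.42 ± 0.36, adjusted p = 0.000268). Nbl1, a secreted BMP antagonist, was at 9.32, 9.46 and 10.25 against 10.77, 11.05 and 11.28 (1.47 ± 0.16, adjusted p = 0.000219), and Tgfb2 rose by 1.34 ± 0.11 (adjusted p = 4.53e-05; groups overlapped), while the brighter Tgfb1 was at 0.11 ± 0.08 (adjusted p = 0.389). Efna5, an ephrin ligand, was at 5.67, 5.9 and 6.29 against 7.21, 7.59 and 7.93 (1.66 ± 0.11, adjusted p = 8.7e-06).

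Other secreted products followed. Apoc4, an apolipoprotein, was at 2.7, 4.3 and 4.8 in WT and 6.65, 7.16 and 9.06 in APP/PS1 samples (3.22 ± 0.25, adjusted p = 2.33e-05). Cck, a neuropeptide precursor, was at 7.6, 8.08 and 8.36 against 9.64, 9.71 and 10.11 (1.72 ± 0.12, adjusted p = 1.14e-05), and Adm, the vasodilator adrenomedullin, at 6.84, 7.65 and 8.2 against 8.89, 9.34 and 9.6 (1.79 ± 0.18, adjusted p = 0.000143). All 3 were apart between groups. Adrenomedullin binds the calcitonin receptor-like receptor together with Ramp2 or Ramp3. Chgb, a granin of secretory vesicles in neurons, fell by 1.26 ± 0.26 (adjusted p = 0.0071), with the neuronal marker list. Of 74 proteases 15 rose (20.3%, against 8.29% of all genes) and 9 fell (12.2%, near 11.4%). The lysosomal Ctsb rose from 14.81, 15.34 and 15.5 to 16.13, 16.51 and 16.84 (1.21 ± 0.14, adjusted p = 0.000312), and the legumain gene Lgmn fell by 0.89 ± 0.11 (adjusted p = 0.000333).

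**Figure D4:**
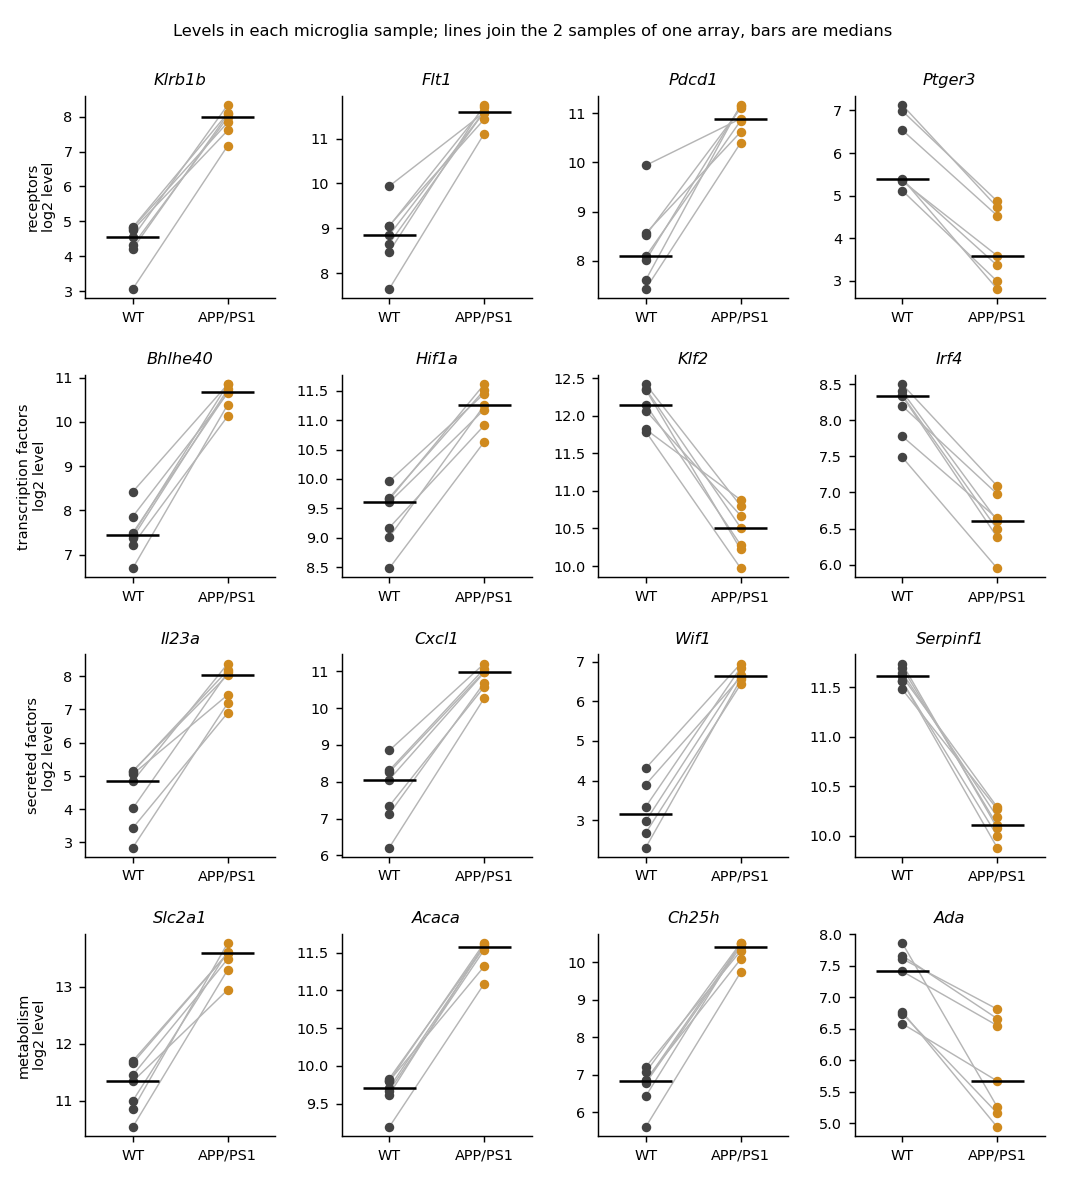
Log2 levels of 16 genes in each microglia sample, 7 WT (grey) and 7 APP/PS1 (orange) except 6 and 6 for Wif1; lines join the samples of one array and bars are medians. Rows are receptors, transcription factors, secreted factors and metabolism, and every line of a gene runs in the same direction. The groups overlap only in Ada, which fell and has an APP/PS1 value (up to 6.81) above the lowest WT value (6.58).

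Of 694 metabolic genes 122 rose and 106 fell (32.9% called, against 19.7% of all genes), with 45 over 2-fold higher and 7 over 2-fold lower. Their median WT level was 9.08, above the 6.11 of all genes, and the share called was not matched for level. Sterol synthesis had the largest share of rises of any list, 11 of 21 up and 2 down, with a median difference of 0.56 against −0.04 for all genes and a median on single arrays of 0.25 to 0.68. Glucose transport, glycolysis and lactate genes rose in 14 of 45 cases (31.1%) and fell in 7 (15.6%). Sphingolipid genes rose in 13 of 47 cases (27.7%) and fell in 4 (8.51%). Over all genes 8.29% rose and 11.4% fell. Respiratory chain and ATP synthase subunits were called in 8.70% of 69 cases, fewer than the 19.7% of all genes, with a median of 0.05.

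Transporters of the glucose and lactate list differed among themselves. Slc2a1, the main glucose transporter, was at 10.54, 11.34 and 11.7 in WT and 12.95, 13.59 and 13.77 in APP/PS1 samples (2.30 ± 0.17, adjusted p = 1.85e-05). Slc2a6, a hexose transporter of lysosomes, was at 8.46, 8.89 and 10.04 against 11.43, 11.77 and 12.24 (2.66 ± 0.16, adjusted p = 5.29e-06), and Slc2a3 at 7.46, 8.32 and 9.13 against 9.32, 10.16 and 10.35 (1.84 ± 0.16, adjusted p = 6.05e-05). Slc16a3, the lactate exporter MCT4, was at 10.59, 11.03 and 11.6 against 12.65, 13.19 and 13.34 (2.05 ± 0.18, adjusted p = 6.05e-05). All 4 of these were apart between groups. Slc16a1 (0.22, adjusted p = 0.079) and Slc2a8 (0.001, adjusted p = 0.995), transporters of the same list chosen after their values were seen, were not called. Slc2a5, the fructose transporter of microglia, fell from 14.57, 14.9 and 15.33 to 13.56, 13.78 and 14.09 (−1.19 ± 0.25, adjusted p = 0.00877; unpaired, 0.066 over all 22 samples and 0.000261 over the microglia samples). Some glycolytic enzymes, chosen after their values were seen, rose less than the 4 transporters that were apart: Pgk1 by 1.47 ± 0.11 (adjusted p = 1.67e-05), Tpi1 by 1.37 ± 0.07 (adjusted p = 2.85e-06), Pkm by 0.96 ± 0.09 (adjusted p = 0.00011) and Ldha by 0.70 ± 0.06 (adjusted p = 3.16e-05). Hexokinase 2 (Hk2) was at −0.03 ± 0.16 (adjusted p = 0.916). Other glycolytic enzymes were lower on every array: Aldoc, also an astrocyte marker (−0.41 to −1.32), Hk1 (−0.3 to −0.6) and Eno3 (−0.07 to −0.84). Over the whole list 14 genes rose and 7 fell. Ldhb, the lactate dehydrogenase subunit of oxidative tissue, fell from 13.8, 14.15 and 14.42 to 13.09, 13.33 and 13.51 (−0.80 ± 0.15, adjusted p = 0.00466), and Idh2, a mitochondrial isocitrate dehydrogenase, by 0.85 ± 0.09 (adjusted p = 0.00014). Known targets of hypoxia-inducible factor outside glycolysis, also chosen after their values were seen, included Ankrd37 (1.89 ± 0.11, adjusted p = 5.06e-06) and Bnip3, a mitophagy receptor (1.12 ± 0.07, adjusted p = 5.29e-06). Not all related genes rose: on single arrays Egln1 was at −0.32 to 0.67 and Egln2 at −0.45 to −0.1.

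The upstream sequences of 4 of these genes are shown because each holds the hypoxia response core ACGTG, which lies within the E-box where C precedes it. They are again 250 bases of RefSeq sequence on GRCm38.p6 with the core, or its other strand CACGT, in capitals. The matches begin at −229 in Egln3, −36 in Slc2a1, −27 and −14 in Slc16a3, and −150 and −131 in Pgk1. The core was found in 8 of the 13 risers of the glycolysis list with upstream sequence, in 1 of 7 fallers and in 8 of 21 not called, against 20.6% of the 17080 tested genes with upstream sequence, 25.3% of those among them that were higher, and 16.6% of 32851 promoters. The core is short and a match shows no binding.
Egln3 chr12:54203875-54204124 (- strand): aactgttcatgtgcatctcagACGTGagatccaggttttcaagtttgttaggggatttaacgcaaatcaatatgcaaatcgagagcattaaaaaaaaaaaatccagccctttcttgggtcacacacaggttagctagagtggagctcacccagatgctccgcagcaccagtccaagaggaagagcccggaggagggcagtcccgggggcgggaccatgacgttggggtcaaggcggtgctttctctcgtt
Slc2a1 chr4:119108495-119108744 (+ strand): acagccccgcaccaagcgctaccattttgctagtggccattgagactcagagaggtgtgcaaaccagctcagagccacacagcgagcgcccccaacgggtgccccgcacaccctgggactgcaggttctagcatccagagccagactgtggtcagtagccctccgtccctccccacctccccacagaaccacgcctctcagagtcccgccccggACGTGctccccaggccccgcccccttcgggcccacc
Slc16a3 chr11:120948817-120949066 (+ strand): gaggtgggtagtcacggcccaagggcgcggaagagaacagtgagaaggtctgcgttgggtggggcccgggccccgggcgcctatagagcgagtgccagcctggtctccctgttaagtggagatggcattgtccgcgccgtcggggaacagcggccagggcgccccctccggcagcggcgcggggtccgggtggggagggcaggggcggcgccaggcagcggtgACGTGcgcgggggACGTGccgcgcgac
Pgk1 chrX:106186850-106187099 (+ strand): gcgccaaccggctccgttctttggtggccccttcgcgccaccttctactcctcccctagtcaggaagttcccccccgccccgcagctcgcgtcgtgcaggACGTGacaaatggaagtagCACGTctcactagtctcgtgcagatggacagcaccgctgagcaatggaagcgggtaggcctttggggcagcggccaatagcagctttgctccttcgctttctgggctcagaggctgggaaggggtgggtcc

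Lipid lists went both ways. Triglyceride and fatty acid binding genes rose in 8 of 40 cases and fell in 5, fatty acid oxidation genes in 3 of 40 and 5, and sterol export genes in 4 of 24 and 3, against 8.29% and 11.4% of all genes. Fabp5, a fatty acid binding protein, was at 9.42, 9.86 and 10.28 in WT and 13.32, 13.63 and 13.8 in APP/PS1 samples (3.74 ± 0.18, adjusted p = 2.1e-06). The near-copy Fabp5l2 gave 3.71, so these probes may not separate the pair. Fabp3, its heart-type relative, was at 8.21, 8.5 and 9.16 against 11.8, 11.92 and 11.94 (3.31 ± 0.13, adjusted p = 7.41e-07). Ch25h, which makes 25-hydroxycholesterol, was at 5.61, 6.83 and 7.21 against 9.74, 10.42 and 10.52 (3.63 ± 0.16, adjusted p = 1.37e-06). In all 3 the lowest APP/PS1 sample was above the highest WT sample. Acaca, the enzyme that commits carbon to fatty acid synthesis, was at 9.19, 9.71 and 9.83 against 11.09, 11.58 and 11.63 (1.83 ± 0.08, adjusted p = 8.6e-07). Nceh1, a cholesteryl ester hydrolase, rose by 2.39 ± 0.12 (adjusted p = 2.52e-06), and the lipid droplet protein Hilpda by 2.01 ± 0.18 (adjusted p = 7.79e-05). In sterol synthesis, Sqle, the squalene epoxidase, was at 5.57, 6.78 and 7.3 against 8.09, 8.64 and 9.11 (1.90 ± 0.20, adjusted p = 0.000175), and Idi1 at 7.02, 7.9 and 8.03 against 8.16, 9.06 and 9.42 (1.30 ± 0.13, adjusted p = 0.000124). Cyp51, a demethylase of lanosterol, rose by 1.32 ± 0.08 (adjusted p = 5.06e-06) with overlap between groups but on 7 of 7 arrays. Mvd, the mevalonate decarboxylase, fell by 0.75 ± 0.17 (adjusted p = 0.0107; −1.05 and −0.32 on the 2 slides).

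Of 41 phospholipase and eicosanoid genes 10 fell (24.4%, against 11.4% of all genes) and 5 rose (12.2%, against 8.29%). Ptgs2, the inducible cyclooxygenase, was at 7.48, 9.64 and 10.19 in WT and 11.87, 12.81 and 13.12 in APP/PS1 samples (3.27 ± 0.25, adjusted p = 2.24e-05), and its 9 other probes gave 3.28 to 3.36. The leukotriene genes Alox5ap, from 13.59, 13.9 and 14.21 to 12.73, 12.92 and 13.25 (−0.95 ± 0.12, adjusted p = 0.000541), and Ltc4s, from 13.73, 13.99 and 14.23 to 12.84, 13.13 and 13.29 (−0.88 ± 0.11, adjusted p = 0.00049), fell. No sample of these 3 genes lay in the range of the other group. St8sia6, a sialyltransferase, rose by 2.35 ± 0.23 (adjusted p = 9.86e-05), and the lysosomal beta-galactosidase gene Glb1 by 1.00 ± 0.07 (adjusted p = 9.41e-06).

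Psat1, of serine synthesis, was at 10.25, 10.54 and 10.91 in WT and 12.06, 12.46 and 12.57 in APP/PS1 samples (1.87 ± 0.18, adjusted p = 9.45e-05), and Got1, the cytosolic aspartate aminotransferase, at 10.47, 10.81 and 11.13 against 12.23, 12.59 and 12.68 (1.67 ± 0.10, adjusted p = 5.9e-06). Both were apart between groups. Glul, glutamine synthetase and an enzyme abundant in astrocytes, fell by 0.96 ± 0.14 (adjusted p = 0.000886). Of 44 genes of nucleotide synthesis, salvage and breakdown 6 rose and 7 fell (29.5% called, against 19.7% of all genes), with a median difference of −0.02. Ada, adenosine deaminase, was at 6.58, 7.41 and 7.86 against 4.94, 5.67 and 6.81, with overlap but lower on 7 of 7 arrays (−1.38 ± 0.21, adjusted p = 0.00136; −0.91 on the slide of replicates 1, 6 and 7), and Pnp, purine nucleoside phosphorylase, fell by 0.95 ± 0.11 (adjusted p = 0.000327). Peroxiredoxin 4 (Prdx4) rose by 1.23 ± 0.06 (adjusted p = 1.37e-06) and sulfiredoxin (Srxn1) by 1.12 ± 0.08 (adjusted p = 1.49e-05). Txnip, which binds thioredoxin and curbs glucose uptake, fell from 13.34, 13.61 and 13.89 to 12.2, 12.46 and 12.61 (−1.18 ± 0.10, adjusted p = 5.84e-05). Slc40a1, the iron exporter ferroportin, fell from 10.78, 11.32 and 11.7 to 9.76, 10.23 and 10.47 (−1.09 ± 0.17, adjusted p = 0.00164), while metallothionein Mt2 rose by 1.44 ± 0.16 (adjusted p = 0.000188). Of 62 glycosyltransferases and sulfotransferases 18 fell (29.0%, against 11.4% of all genes) and 7 rose (11.3%, against 8.29%). Beside Chst3, Chst10 rose by 2.03 ± 0.19 (adjusted p = 9.45e-05), and Chst8 fell by 1.18 ± 0.12 (adjusted p = 0.000111).

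Among 99 signalling regulators 17 rose (17.2%, against 8.29% of all genes) and 25 fell (25.3%, against 11.4%). Rgs16, which ends G protein signals, was at 5.0, 5.79 and 6.26 in WT and 8.82, 9.24 and 9.68 in APP/PS1 samples (3.61 ± 0.12, adjusted p = 2.75e-07), in a family in which 6 of 19 fell (31.6%) and 2 rose (10.5%). Pde4b, a cAMP phosphodiesterase, was at 8.02, 9.25 and 9.64 against 9.97, 10.73 and 11.2 (1.57 ± 0.12, adjusted p = 1.85e-05), although one of its other probes gave 0.21 (adjusted p = 0.761). Cish, a feedback inhibitor induced by STAT5, was at 5.93, 6.96 and 7.76 against 7.86, 8.52 and 8.95 (1.51 ± 0.19, adjusted p = 0.000496). None of the 3 overlapped. The Src-family kinase Fgr rose by 1.74 ± 0.21 (adjusted p = 0.000421), and Syk, the kinase downstream of ITAM receptors, fell from 11.69, 11.97 and 12.01 to 11.07, 11.34 and 11.57 (−0.60 ± 0.13, adjusted p = 0.01).

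In the genomic order of the tested genes, risers over 2-fold (2.27% of all genes) followed one another in 25 runs, which held 55 of the 504 that could be placed. Genes that were not tested may lie between them. How many runs chance would give was not tested. These runs, noticed after the values were seen, included Cxcl1 with Cxcl2, Clec1a with Clec7a (1.89 and 2.60), Klrb1 with Klrb1c and Klrb1b, Tnfsf9 with Cd70 (1.17 and 1.05; adjusted p of Cd70 0.0658 without the pairing), Ctse with Rab7b (4.10 and 3.11), Dcstamp with Dpys (3.77 and 3.06) and Cdkn2a with Cdkn2b (3.24 and 1.06). Paralogs within a run may share probe sequence.

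The effect of the genotype was set beside that in astrocytes (4 APP/PS1 and 4 WT samples) for the largest riser and faller that the rule for named genes allows (measured on at least 6 arrays, with one sign on each) among the listed receptors, transcription factors, secreted factors and metabolic genes. Dkk2, Sox7 and Atp6v0d2, with larger differences on 5 arrays, are thereby left out. Over all genes the 2 effects differed in 5957 (26.6%). The genes set beside astrocytes were chosen for a large change in microglia in the same fit, which favours a difference. Cst7 rose in both, by 4.99 ± 0.27 in microglia and 5.04 ± 0.35 in astrocytes (difference 0.05 ± 0.44, adjusted p = 0.947). Its mean level in the astrocyte samples was 4.6 in WT and 9.64 in APP/PS1, both below the 10.82 of WT microglia. Whether the rise in the astrocyte samples came from astrocytes themselves was not tested. Fabp5 rose in microglia and fell by 1.71 ± 0.23 in astrocytes (difference −5.45 ± 0.29, adjusted p = 1.58e-05). Bhlhe40 was at −0.41 ± 0.20 in astrocytes (difference −3.53 ± 0.25, adjusted p = 5.06e-05), and Klrb1b at 0.72 ± 0.49 (difference −2.85 ± 0.61, adjusted p = 0.00754). The 4 fallers were higher in APP/PS1 astrocytes on 4 of 4 arrays: Ptger3 by 1.1 ± 0.21, Klf2 by 1.08 ± 0.23, Ada by 1.12 ± 0.27 and Serpinf1 by 0.77 ± 0.17, with differences of 3.29, 2.77, 2.51 and 2.26 (adjusted p = 6.68e-05, 0.000201, 0.000736 and 0.000116).

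**Figure D5:**
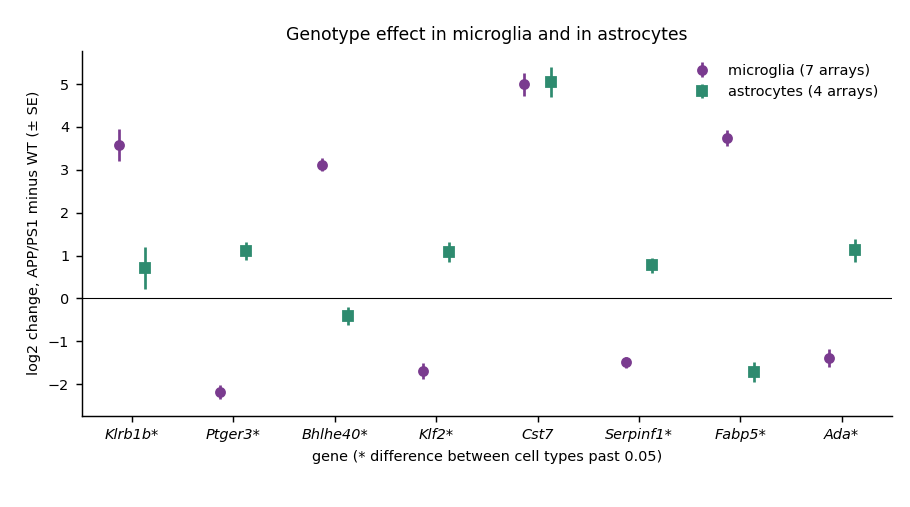
Points give the log2 change, APP/PS1 minus WT, in microglia (circles, 7 arrays) and astrocytes (squares, 4 arrays) with SE bars for the 8 genes; an asterisk marks a difference between cell types past an adjusted p of 0.05. Cst7 alone has overlapping points near 5, and Ptger3, Klf2, Serpinf1 and Ada lie below 0 in microglia and above 0 in astrocytes.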

How the data were processed

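The deposited table holds log2 values for single channels of 2-colour Agilent arrays, which the authors processed with limma, per the submitters' processing notes; for background correction, normalization and the rule behind blank values the method is not stated. Medians of the microglia samples were 6.24 to 6.25 and the highest value was 17.89, so levels were already brought to one scale, and no detection calls were used. The number of arrays limits the precision. Of 43020 probes 33026 had a gene name; the probe with the highest mean over 22 samples stood for each of 22485 genes.

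The difference APP/PS1 minus WT was taken within each of 11 arrays and fitted with limma 3.58.1 in R 4.3.3 (a mean for microglia, one for astrocytes, and the dye; APP/PS1 was in Cy5 on 3 microglia arrays and Cy3 on 4), with Benjamini-Hochberg adjustment over 22383 genes at 0.05. Adjusted p-values come from this fit unless another is named, and the change ± SE is on the log2 scale over 7 arrays unless another number is given. The fit was tested on simulated data with independent noise and no blank values. Such data cannot check genes on few arrays, correlated genes or differences between slides. Of the genes tested, 1209 had 1 or 2 microglia arrays, and 69 of them were called. Same-numbered samples share an array, so the numbers pair them: deviations from the group means correlated at 0.367 to 0.631 within arrays (16370 genes). The 4 arrays of replicates 2, 3, 4 and 5 were on one slide and those of 1, 6 and 7 on another. Genes were named where they passed 0.05 with one sign on every measured array, at least 6 of 7 (the 30 largest changes each way, and up to 4 rises and 3 falls per list), or were the brightest of a list, a marker or a check. Members and lists were chosen with earlier results of these data known. Upstream sequences are those of RefSeq, 250 bases each. Other settings are given in the closing section.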

Additional observations from a re-analysis of the deposited data

Results flagged for a closer look

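On single arrays, 7 of 205 genes checked had one array whose difference stood apart from the others; chance alone flags about 1 gene in 20. On the array of replicate 2 the difference was 8.39 for Asb11 (4.46 to 4.91 on the others), 1.5 for Clec7a (2.49 to 3.17) and 2.02 for Itgax (2.54 to 2.82). It was 5.99 for Atp6v0d2 on replicate 6 (3.96 to 4.55) and 4.95 for Dpys on replicate 4 (1.82 to 3.14). On replicate 3 it was 1.66 for Igf1 (0.82 to 1.13) and 0.57 for Pkm (0.93 to 1.14). In each of the 7 genes the array that stood apart had the same sign as the others.

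The 8 genes set beside astrocytes in the report were the largest riser and faller of each domain among genes measured on at least 6 arrays with one sign on each. Of these, 7 had a genotype effect that differed between the cell types by the interaction in limma with Benjamini-Hochberg adjustment. Over all genes 5957 (26.6%) did. The 8 were chosen for a large change in microglia in the same fit, which favours a difference, so the 7 of 8 is not a separate result. Astrocytes minus microglia, the difference was −2.85 for Klrb1b, 3.29 for Ptger3, −3.53 for Bhlhe40, 2.77 for Klf2, 2.26 for Serpinf1, −5.45 for Fabp5 and 2.51 for Ada.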

How the results depend on the processing

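Without the replicate block, that is, with the pairing by array dropped, 1185 genes were called, 739 higher and 446 lower (121 over 2-fold lower), and 1492 differed between microglia and astrocytes. An unpaired fit of the microglia samples alone, chosen after seeing the data, called 1077, 679 higher and 398 lower (109 over 2-fold lower). Of 506 called genes looked at singly, 185 lost their call in the first fit and 197 in the second. The arrays of one slide (replicates 2, 3, 4 and 5) gave 1559 calls, 869 higher and 690 lower, and those of the other (1, 6 and 7) 595, 452 higher and 143 lower (67 over 2-fold lower); fewer arrays were fitted in each. Of the 506, 505 had one sign on both slides and Twist1 had no value on the first. Genes over 2-fold lower numbered 138 among genes on all arrays and 100 among genes above the median level, where fewer genes were tested. Leaving out one replicate at a time gave 3309 to 3931 calls, 1473 to 1635 higher and 1836 to 2296 lower, 492 to 538 over 2-fold higher and 205 to 238 over 2-fold lower, and 90 of the 506 lost their call at least once. The mean of all probes turned Adora3 to 0.23 (adjusted p = 0.272) and Cd80 to 0.25 (adjusted p = 0.347), from −0.71 and −0.24; the cause was not tested. None of the other genes looked at reversed under the settings tried. Dropping the dye (21 calls lost), quantile normalization (0 lost) and the random block (7 lost) moved no count over all genes by over 1.5 times. Counts of single gene lists were less steady: 6 moved that far without the dye, 0 under quantile normalization and 19 with the random block. Without the replicate block 107 list counts moved and 55 did not. On the slide of replicates 2, 3, 4 and 5 alone 115 moved, and on the other slide 128.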
